A study of Mus musculus with 11 samples.

Results

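Collagen and matrix genes build the scaffold that holds cells in a tissue. The set described here holds 10 mouse genes, Col1a1, Col1a2, Col3a1, Col5a2, Col4a1, Col4a2, Col6a2, Sparc, Dcn and Fn1. They were taken up as a named list, with every probe set annotated to only 1 of them, which gave 18 of the 22626 probe sets on the array. The samples were 11 B cell lymphomas of E-mu-BRD2 mice on the FVB background, 6 of the marginal and 5 of the transitional severity class, with 1 array each. The mice carry BRD2, a bromodomain protein that binds acetylated histones, as a transgene under the immunoglobulin heavy chain enhancer, which acts in B cells, so matrix genes of other cells lie outside the cells it targets. The labels give no animal age, no tissue for the RNA of a tumour and no share of tumour cells. Each of the 11 tumours carried an oligoclonal immunoglobulin label. The resting and activated B cells and the further lymphoma class of the design were not analysed here.

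The enlarged spleen of each animal had a grade. Marginal 1 alone had the marginal grade. The mild grade covered marginal 2, 3 and 4 and transitional 3, and the moderate grade marginal 5 and 6. Transitional 4 and 5 had moderately severe spleens, and both transitional 1 and transitional 2 severe ones. The recorded sign was failure to nest in 5 of 5 transitional and 2 of 6 marginal animals (marginal 2 and 3). It was a solid tumour of the neck, leg or haunch in marginal 1, 4 and 5, and paralysis in marginal 6.

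Fibrillar collagens (types I, III and V) form the tensile fibres of connective tissue and of the reticular meshwork of spleen and lymph node. Type IV collagen forms the sheet of basement membranes, and type VI forms beaded filaments around cells. Sparc and Dcn bind collagen and shape its assembly, and fibronectin (Fn1) links collagen to integrin receptors on cells. Fibroblasts, reticular stromal cells, pericytes and endothelial cells are the usual makers of these proteins, and B cells are not known as a main source. In RNA of a whole sample, fewer cells of a type and less RNA per cell cannot be told apart.

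RefSeq start-site sequence (GRCm38.p6) was at hand for 6 of the 10 genes. The 250 bases before the start are shown for 3 members that were high on the same array, Col1a2 (chr6:4505368-4505617, plus strand), Col3a1 (chr1:45311288-45311537, plus strand) and Sparc (chr11:55420081-55420330, minus strand), each lying upstream of the gene's annotated transcript. Capitals mark CCAAT (or ATTGG on the other strand), GGGCGG (or CCGCCC) and TATAAA (or TTTATA), which share no bases in these windows.
Col1a2: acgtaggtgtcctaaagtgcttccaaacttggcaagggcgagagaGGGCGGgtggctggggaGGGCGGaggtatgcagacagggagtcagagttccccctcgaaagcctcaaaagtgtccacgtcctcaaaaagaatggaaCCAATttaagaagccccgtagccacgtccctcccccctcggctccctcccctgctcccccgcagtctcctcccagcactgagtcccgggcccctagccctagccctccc
Col3a1: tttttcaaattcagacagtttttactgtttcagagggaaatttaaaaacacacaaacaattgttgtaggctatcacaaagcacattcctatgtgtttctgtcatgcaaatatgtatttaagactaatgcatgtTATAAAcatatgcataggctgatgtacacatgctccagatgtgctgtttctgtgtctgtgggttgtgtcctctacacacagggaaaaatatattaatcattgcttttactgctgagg
Sparc: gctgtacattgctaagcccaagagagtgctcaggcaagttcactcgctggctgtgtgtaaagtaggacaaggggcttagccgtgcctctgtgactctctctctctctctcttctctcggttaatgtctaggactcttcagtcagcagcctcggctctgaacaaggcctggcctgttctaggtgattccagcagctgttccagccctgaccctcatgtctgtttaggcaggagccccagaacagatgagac
Col1a2 held 1 CCAAT and 2 GGGCGG matches, Col3a1 held 1 TATAAA match, and Sparc held none of the 3 motifs. Of all 32851 windows of this length, 33.9% held CCAAT, 32.7% held GGGCGG and 12.4% held TATAAA on either strand. The windows differed in base composition, with 62.0% G and C for Col1a2, 35.2% for Col3a1 and 54.0% for Sparc, against a median of 52.4% over all windows. Some members lie side by side in the genome. Col3a1 (chr1:45311538-45349706) and Col5a2 (chr1:45374331-45503282) are 24624 bases apart. Col4a1 (chr8:11198423-11312889) and Col4a2 (chr8:11312805-11449287) run in opposite directions, and their annotated transcript starts overlap head to head. The other members lie apart, Col1a1 at chr11:94936224-94953042, Col6a2 at chr10:76595756-76623630, Dcn at chr10:97479500-97518163 and Fn1 at chr1:71585473-71653280.

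Most of the matrix genes had their highest signal in 1 lymphoma, transitional 2, an animal with a severe spleen grade that failed to nest. Signals are MAS5 intensities on a linear scale, and the median signal over all probe sets ran from 99.7 to 152 by array. Of the 18 member probe sets, 13 lay above the array median on transitional 2, where 50% of all probe sets do by definition. On the other arrays the count was between 1 and 4, and it took in Fn1 on each, Sparc and Col6a2 on some and Col1a2 on transitional 4. Most member signals on those arrays lay below the array median, and no detection call was used, so a ratio against them is not a measured fold. Transitional 2 was the highest of the 11 arrays for 13 of the 18 (11.7% of all probe sets). On the log2(signal + 16) scale it lay at least 2 units above every other array for 8 of the 18 (0.557% of all probe sets, or 126), a gap chosen after the data were seen. No other array led any member by that much, and over all probe sets the other 10 arrays had between 1 and 16 such leads each.

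**Figure D1:**
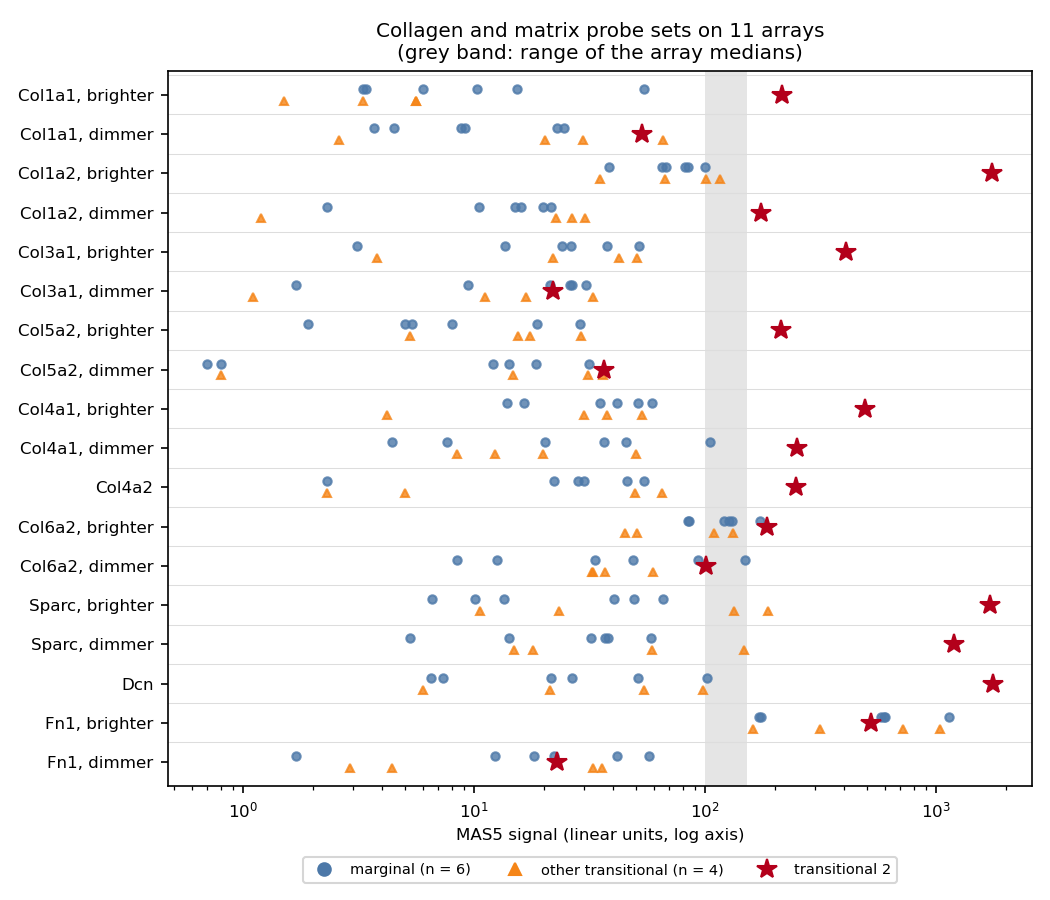
MAS5 signal (log axis) of the 18 probe sets of the 10 genes on each of 11 arrays, with 6 marginal arrays as circles, 4 transitional arrays as triangles and transitional 2 as a star. The grey band spans the array medians (99.7 to 152), and the star lies to its right for 13 probe sets.

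**Figure D2:**
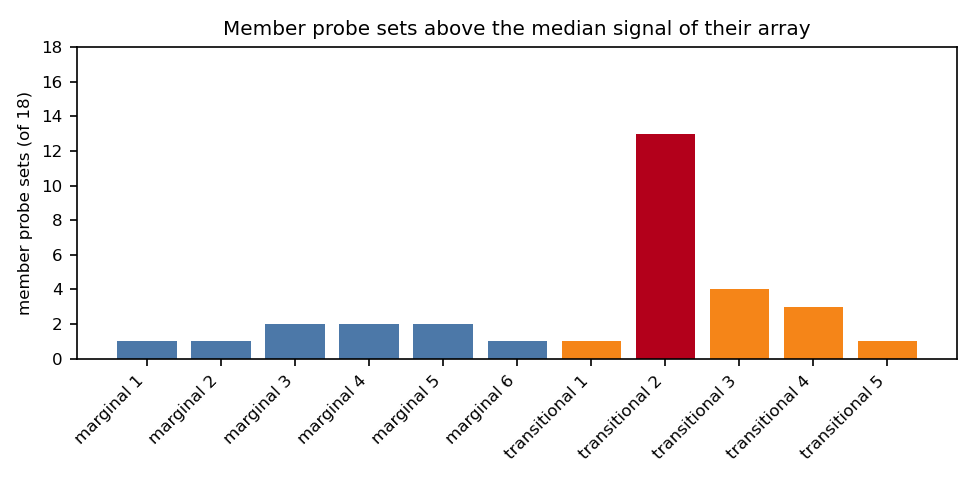
Number of the 18 member probe sets whose signal exceeded the median of its own array, for each of the 11 arrays. Transitional 2 reached 13 and the other arrays between 1 and 4.

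Among the fibrillar collagens, Col1a2, a chain of collagen I, was highest on transitional 2 with both probe sets. Its brighter probe set read 100.1, 38.4, 67.8, 81.8, 84.2 and 64.9 on marginal 1 to 6 and 100.5, 1741, 35.1, 116.4 and 67.1 on transitional 1 to 5. Transitional 2 was far above the next array, transitional 4, while the remaining transitional arrays lay within or close to the marginal range. The dimmer Col1a2 probe set read 174.5 on transitional 2 and between 1.2 and 30.2 elsewhere. For Col1a1, the partner chain of collagen I, the brighter probe set read 215.7 on transitional 2 and between 1.5 and 54.4 elsewhere. The other Col1a1 probe set read 53.5 on transitional 2 and 65.7 on transitional 3, both below the array median.

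Col3a1, the collagen of reticular fibres, read 407.7 on transitional 2 with its brighter probe set and at most 51.8 elsewhere. Its second probe set gave a different picture, with 21.9 on transitional 2 and 32.7 on transitional 3, and lay below the median of every array. Col5a2, a chain of the type V collagen that joins collagen I fibres, read 212.2 on transitional 2 and at most 28.9 elsewhere. Its second probe set read 36.6 on transitional 2 and 36.3 on transitional 3, again below the array median. The probe sets of 1 gene thus disagreed for Col1a1, Col3a1 and Col5a2, and in each case the dimmer of them did not set transitional 2 clearly apart.

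The basement membrane chains were also highest on transitional 2. Col4a1 read 35.2, 13.9, 41.5, 59.0, 51.1 and 16.4 on the marginal arrays and 4.2, 492.7, 53.3, 37.6 and 29.9 on the transitional arrays. Marginal 4 was next after transitional 2, and transitional 1 was the lowest of all. The dimmer Col4a1 probe set read 250.9 on transitional 2 and 105.5 on marginal 5, the animal with a haunch tumour. Col4a2, the partner of Col4a1 in the same trimer, read 247.1 on transitional 2 and between 2.3 and 64.8 on the other arrays.

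Col6a2, a chain of the type VI filaments, did not follow this order. Its brighter probe set read 127.2, 84.9, 131.0, 120.9, 172.2 and 84.3 on the marginal arrays and 109.0, 184.7, 132.1, 44.8 and 50.5 on the transitional arrays. Transitional 2 exceeded marginal 5 by a ratio of 1.07 only, and the lowest values were those of transitional 4 and 5. The x in this probe set's name marks probes that can also match other transcripts. The second Col6a2 probe set was highest on marginal 4, at 149.1, with 101.0 on transitional 2 and at most 93.1 on the rest.

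Sparc, a collagen-binding glycoprotein of remodelling tissue, was the member with the clearest second rank. Its brighter probe set read 10.1, 49.0, 13.4, 40.5, 65.5 and 6.6 on the marginal arrays and 10.6, 1717.2, 186.3, 133.5 and 23.4 on the transitional arrays. Its dimmer probe set read 1192.6 on transitional 2, 147.9 on transitional 3 and 58.6 on transitional 4, against at most 58.2 on the marginal arrays. In both, transitional 2, 3 and 4 lay above all 6 marginal arrays, though transitional 4 by little in the dimmer one, and transitional 1 and 5 lay inside the marginal range.

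Dcn, the small proteoglycan decorin, lay below the array median on every array but transitional 2. It read 21.6, 6.5, 51.1, 7.3, 26.5 and 102.1 on the marginal arrays and 54.4, 1759.1, 97.7, 21.3 and 6.0 on the transitional arrays. The values next to transitional 2 came from both classes, marginal 6 and transitional 3.

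Fn1 was the exception in level and in order. Its brighter probe set lay above the array median on all 11 arrays. It read 1133.1, 576.0, 595.6, 600.2, 171.6 and 174.1 on the marginal arrays and 161.7, 524.9, 313.9, 720.8 and 1036.0 on the transitional arrays. Marginal 1 and transitional 5 were highest, marginal 5 and 6 and transitional 1 were lowest, and transitional 2 stood in the middle. The dimmer Fn1 probe set was also highest on marginal 1, at 57.4, and stayed below the median of every array. Beside it, the summed signal of 8 megakaryocyte and platelet markers was 2348.6 on marginal 1 and 2038.5 on transitional 5, and 791.7, 883.5 and 567.3 on marginal 5, marginal 6 and transitional 1. On the other marginal arrays it was 1998.2 to 2876.4, and it was highest on transitional 2, at 5734.9, where Fn1 was not. On marginal 1, 5 and 6 and transitional 1 and 5 other lists had a like order, but not over all 11 arrays. The 7 erythroid markers summed to 44284.1 on marginal 1 and 59964.4 on transitional 5. They summed to 17514.1, 16219.4 and 1003.7 on marginal 5, marginal 6 and transitional 1. The 11 macrophage markers summed to 4003.2, 4258.6, 3331.0, 2951.8 and 1684.8 on the same arrays in that order. The erythroid sum was highest on transitional 4, at 73897.5, where Fn1 read 720.8. The macrophage sum was highest on transitional 2 and next on marginal 2, at 10237.4, where Fn1 read 576.0. The part of any of these cells in the Fn1 values was not tested.

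The first comparison of the design is between the severity classes. It was fitted with limma on log2(signal + 16), transitional minus marginal, a scale that understates the differences of dim probe sets. Only probe sets in the upper 60% by mean over all arrays were tested (13576), and 7 of the 18 member probe sets passed: the brighter probe sets of Col1a2, Col4a1, Col6a2 and Fn1, both of Sparc, and Dcn. Without transitional 2 only 3 of the 18 would pass, those of Col1a2, Col6a2 and Fn1, so the others entered through that array. No member and no other probe set passed limma's test at an adjusted p of 0.05 (0% called), and 446 of 13576 had an unadjusted p under 0.05, none of them a member.

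Sparc had the largest class difference of the members tested. Its brighter probe set averaged 30.9 ± 24.3 (SD, n = 6) over the marginal arrays and 414 ± 732 (SD, n = 5) over the transitional arrays. The log2 difference was 1.76 with a standard error of 0.91 (limma adjusted p = 0.999). Without transitional 2 the transitional signal was 88.5 ± 85.4 (SD, n = 4) and the difference 0.85 with a standard error of 0.64 (limma adjusted p = 0.890). Dcn went from 1.25 (SE 0.96) to 0.22 (SE 0.60) on leaving that array out, and Col1a2 from 0.91 (SE 0.73) to 0.06 (SE 0.34). Col4a1 turned from 0.52 (SE 0.69) to −0.19 (SE 0.45). Col6a2 had a lower mean in transitional lymphomas with and without it, at −0.29 (SE 0.34) and −0.51 (SE 0.33). Fn1 stayed near 0, at 0.06 (SE 0.55) and 0.01 (SE 0.61).

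**Figure D3:**
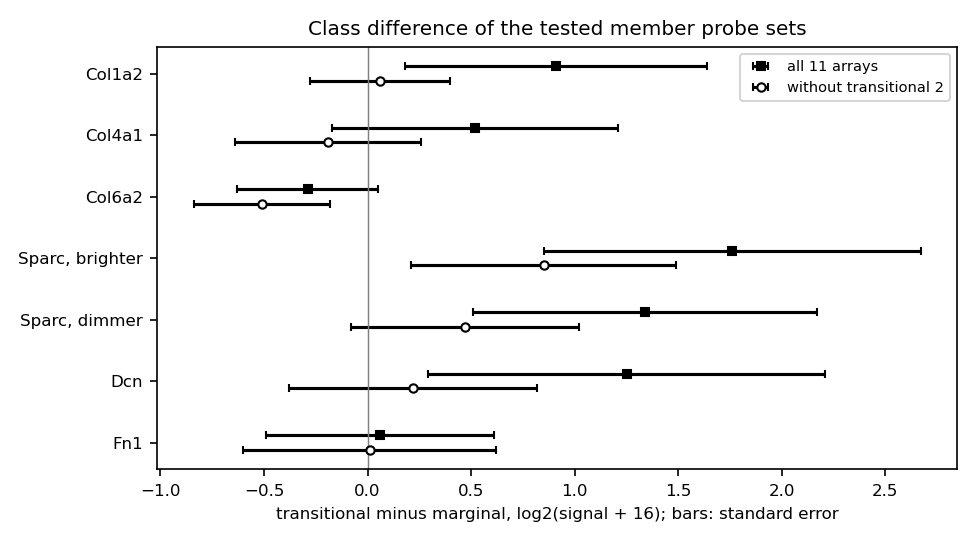
Log2 difference (transitional minus marginal, log2(signal + 16)) of the 7 tested member probe sets, with bars for the standard error. Filled squares use all 11 arrays and open circles leave out transitional 2, which takes Dcn from 1.25 to 0.22 and Col1a2 from 0.91 to 0.06.

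With no filter, so that all 18 member probe sets had a value, 15 had a higher and 3 a lower mean in transitional lymphomas, with a median log2 difference of 0.48. Over all 22626 probe sets 46.8% were higher and the median was −0.025. Without transitional 2, 10 of the 18 were higher and 8 lower (44.2% of all probe sets higher), with a median of 0.035 against −0.050. None was called with no filter (0% of all probe sets), where 869 probe sets and 0 members had an unadjusted p under 0.05.

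Spleen grade, ranked from 1 (marginal) to 5 (severe), was tested as a linear trend. No probe set passed (0% called by limma, with 295 of 13576 under an unadjusted p of 0.05), and Col1a2 was the tested member with the smallest p. Its slope was 0.59 log2 units per grade step with a standard error of 0.25 (limma adjusted p = 0.9997), and 0.14 with a standard error of 0.14 without transitional 2. The 2 severe spleens were far apart, with Col1a2 at 100.5 and 1741, Sparc at 10.6 and 1717.2, and Dcn at 54.4 and 1759.1 on transitional 1 and 2. Transitional 1 lay inside the range of the mild and moderate spleens for Sparc and Dcn. Dcn had a slope of 0.62 (SE 0.36) with all arrays and 0.05 (SE 0.25) without transitional 2, and Sparc one of 0.54 (SE 0.37) and −0.03 (SE 0.29). With no filter 15 of 18 member slopes were positive (47.7% of all probe sets), with a median of 0.27 against −0.006 over all probe sets. Without transitional 2 they numbered 8 of 18 (43.4% of all probe sets), with a median of −0.012 against −0.023. The largest of the dim members was Col5a2 at 0.53 (SE 0.16), with an unadjusted p of 0.00615 and an adjusted p of 0.999 in limma with no filter.

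Fn1 had lower signals at the higher grades among the marginal lymphomas, and no such order among the transitional ones. By grade its signal was 1133.1 in the marginal spleen, 576.0, 595.6, 600.2 and 313.9 in the mild spleens, and 171.6 and 174.1 in the moderate spleens. It was 720.8 and 1036.0 in the moderately severe spleens, and 161.7 and 524.9 in the severe spleens. Among the marginal lymphomas the values were lower at each higher grade without overlap, and among the transitional ones the severe spleens lay below the moderately severe ones, with the mild spleen between the severe ones. With class in the model its slope was −0.46 log2 units per step with a standard error of 0.29 (limma adjusted p = 0.9999). No probe set passed this test (0% called, with 288 under an unadjusted p of 0.05). Leaving out transitional 3 changed this, with a slope of −1.41 for Fn1 (limma adjusted p = 0.0174). In that fit 1188 probe sets, 8.75% of those tested, were called, and Fn1 was the only member among them. Transitional 3 was the only transitional lymphoma below the moderately severe grade. Without it the transitional part of the slope sets transitional 1 and 2 against transitional 4 and 5. The summed signal of 7 B cell markers was 43618.3 and 43141.6 on the former and 9576.1 and 6175.3 on the latter. For 7 erythroid markers it was 1003.7 and 5463.9 against 73897.5 and 59964.4. The cause of the change was not tested.

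**Figure D4:**
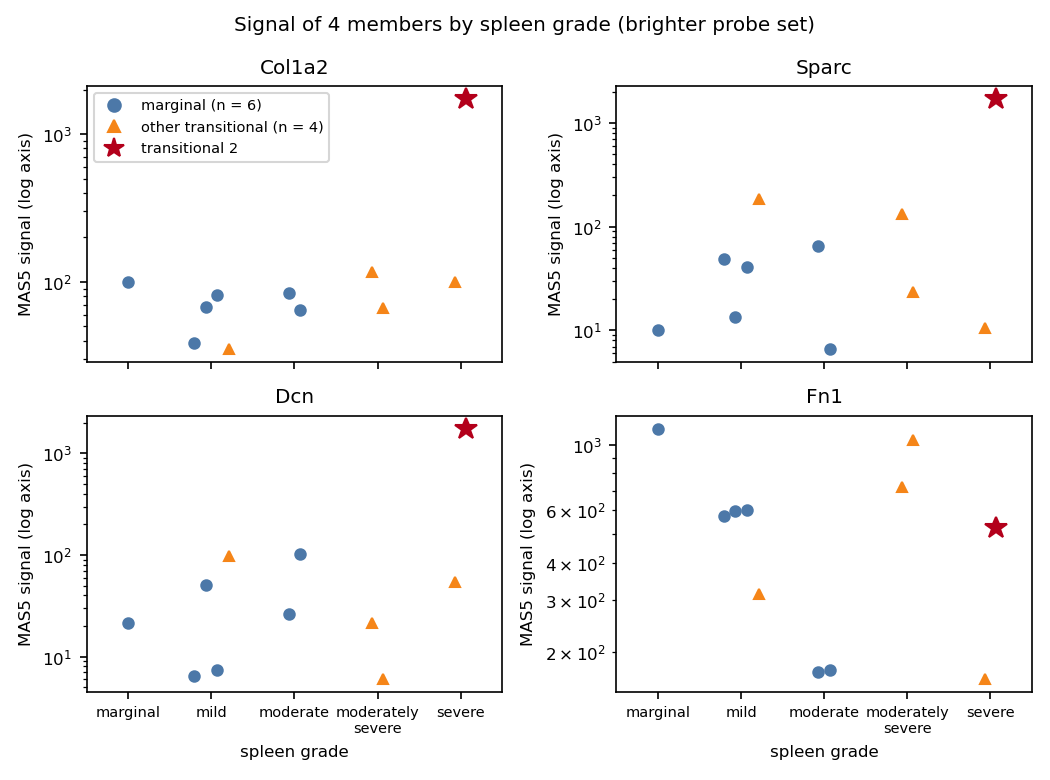
MAS5 signal (log axis) of Col1a2, Sparc, Dcn and Fn1 (brighter probe set where there are several) by spleen grade, with circles for marginal, triangles for transitional arrays and a star for transitional 2. For Col1a2, Sparc and Dcn the star lies far above the other severe spleen, and for Fn1 the 6 marginal arrays run from 1133.1 in the marginal spleen to 171.6 and 174.1 in the moderate spleens.

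The recorded sign, a solid tumour against failure to nest, was compared with class in the model. This sets marginal 1, 4 and 5 against marginal 2 and 3, since every transitional animal failed to nest. No probe set passed (0% called by limma, 184 under an unadjusted p of 0.05). The differences were 0.63 (SE 1.20) for Col1a2, 0.62 (SE 1.10) for Col4a1, −0.22 (SE 1.53) for Dcn and 0.17 (SE 1.48) for Sparc. Leaving out transitional 2 left these values as they were and lowered the standard errors to between 0.48 and 0.95. With no filter 11 of 18 member probe sets were higher with a solid tumour (57.85% of all probe sets), with a median of 0.083 against 0.076. The dimmer Col6a2 probe set had the largest difference, 1.61 (SE 0.57). It read 48.7, 149.1 and 33.2 with a solid tumour and 8.4 and 12.5 with failure to nest in marginal 2 and 3 (unadjusted p = 0.0172, adjusted p = 0.9997 in limma with no filter). The 5 transitional animals, which also failed to nest, read 32.5 to 101.0, close to or inside the solid tumour range, and marginal 6, with paralysis, read 93.1.

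Other genes of the matrix were followed in 7 lists, with 134 genes on the array and 46 tested. The filter used the mean over all arrays, so some list genes, such as Pdgfb, passed it only through transitional 2. Of the 46, 24 had a higher and 22 a lower mean in transitional lymphomas, with a median log2 difference of 0.007 against −0.055 over all tested probe sets, of which 42.7% were higher. Without transitional 2, a count added after the data were seen, 10 of the 46 were higher, against 41.4% of all tested probe sets. For grade, 26 slopes were positive and 20 negative, with a median of 0.011 against −0.012, and no list gene passed any of the 4 tests. Transitional 2 was the highest array for 58 of the 134 genes, or 43.3%, against 12.3% of all genes by their brightest probe set. It led by 2 log2 units or more for 4 of the 134 (0.662% of all genes). These were Bgn, the proteoglycan biglycan, at 1015.2 against at most 120.5 elsewhere, and Mmp14, a membrane-bound collagenase, at 1172.3 against at most 146.5. The others were Pcolce, an enhancer of procollagen processing, at 402.8 against at most 41.6, and the collagen chaperone Serpinh1 at 348.7, 2.47 log2(signal + 16) units above the next array.

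Among other collagens, 3 of 19 genes were tested. Col6a3, a partner chain of Col6a2, differed between classes by −0.13 (SE 0.53). Col5a1, the partner of Col5a2, also differed by −0.13 (SE 0.85), with a slope of −0.16 (SE 0.33), and its highest signals were 1203.7 and 1081.9 on transitional 4 and 5 with 178.7 on transitional 2. Col14a1 had a slope of 0.22 (SE 0.29), and −0.07 without transitional 2. Its signal was high on marginal 6 (703.5) as well as transitional 2 (753.0). Col5a1 thus did not share the order of its partner chain.

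Of the basement membrane proteins 3 of 11 were tested. Nid1, which links laminin to collagen IV, had a class difference of −1.52 (SE 0.96). It was highest on marginal 5, at 3610.6, and lowest on transitional 5, at 5.5. Lamc1, a laminin chain, differed by −0.06 (SE 0.40), with a slope of 0.03 (SE 0.15), and Hspg2, the proteoglycan perlecan, had a slope of −0.03 (SE 0.10).

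Of the proteoglycan, elastic fibre and matricellular list, 6 of 30 genes were tested. All 6 had a higher mean in transitional lymphomas, but 3 higher and 3 lower without transitional 2. Eln, elastin, had the smallest p, with a difference of 0.70 (SE 0.32, unadjusted p = 0.0494, limma adjusted p = 0.999). Ecm1 differed by 0.42 (SE 0.44), but by 0.05 without transitional 2, and had a slope of 0.14 (SE 0.17). Bgn had a slope of 0.34 (SE 0.26), and −0.09 without transitional 2.

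Collagen modification genes had 5 higher and 3 lower of 8 tested, and 2 higher and 6 lower without transitional 2. P4hb, a subunit of prolyl hydroxylase, differed by 0.23 (SE 0.22) and the cyclophilin Ppib by 0.20 (SE 0.24). Both enzymes also fold other secreted proteins. Crtap and P4ha1, of the prolyl hydroxylation machinery, had slopes of 0.13 (SE 0.10) and 0.11 (SE 0.14). Without transitional 2 these slopes were 0.01 and −0.01.

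Of the 4 tested proteases and inhibitors 3 were higher, and 0 without transitional 2. Mmp14 differed by 0.52 (SE 0.65), and by −0.22 without transitional 2. Its slope was 0.26 (SE 0.25), and −0.18 without transitional 2. Timp2, an inhibitor of metalloproteases, differed by 0.32 (SE 0.50), and by −0.08 without transitional 2. Mmp9, the gelatinase of neutrophils and macrophages, had a slope of −0.53 (SE 0.42), and −0.78 without that array.

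Matrix receptors had 4 higher and 7 lower of 11 tested, and 3 and 8 without transitional 2. The proteoglycan Sdc4 differed by −0.94 (SE 0.49) and the integrin Itgb5 by −0.53 (SE 0.34). The integrin Itga9 had a slope of 0.20 (SE 0.19) and the collagen receptor Ddr1 one of −0.26 (SE 0.25). Without transitional 2 these slopes were −0.07 and −0.55. The TGF beta and PDGF pathway, which drives matrix synthesis in fibroblasts, also had 4 higher and 7 lower of 11, and 1 and 10 without transitional 2. Smad4, the shared signal carrier of TGF beta receptors, differed by −0.86 (SE 0.37, unadjusted p = 0.0390, limma adjusted p = 0.999). It was lowest on transitional 4 and 5, at 418.3 and 381.0. The growth factor Pdgfb differed by 0.78 (SE 0.49), with a slope of 0.26 (SE 0.20). It was highest on transitional 2 at 313.4 and passed the filter only through that array. Without that array its difference was 0.35 and its slope −0.0. Ltbp3, which binds latent TGF beta, had a slope of 0.23 (SE 0.14), and 0.11 without transitional 2.

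Markers of the cells that make or hold matrix moved with transitional 2 in part. The summed signal of 12 fibroblast and mesenchymal markers was 1814.2 there, 396.4 to 723.9 on the marginal arrays and 238.5 to 719.7 on the other transitional arrays. Pdgfrb, a receptor of fibroblasts and pericytes, read 664.2 against at most 149.7 elsewhere, and Pdgfra, a fibroblast receptor, 195.7 against at most 42.2. In the same list 8 of the 12 genes lay below the array median on all 11 arrays, transitional 2 included. Among them were Lum, Fbln1, Postn and Dpt, which the list of proteoglycans and matricellular proteins also holds. Thy1 alone gave 490.4 of the 723.9 on marginal 3, 505.5 of the 719.7 on transitional 1, and 288.1 on transitional 2. The 14 endothelial markers summed to 2387.4 on transitional 2, 900.4 to 1651.4 on the marginal and 730.2 to 1130.8 on the other transitional arrays. Plvap, of fenestrated vessels, read 572.3 against at most 75.8, whereas Cdh5, a cadherin of endothelial junctions, read 35.6 there and lay below the median of every array. Pecam1 alone gave 1153.7 of the endothelial sum of 1651.4 on marginal 4, and 547.3 on transitional 2. The 9 pericyte and smooth muscle markers summed to 1249.3, against at most 653.0 and 391.0 on the marginal and other transitional arrays. Of that sum Myl9 gave 425.9 and Acta2 341.3, and 7 of the 9 genes lay below the median of every array. Transitional 2 was the highest array for 5 of the 9.

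Macrophage markers, 11 genes, summed to 32636 on transitional 2, 2951.8 to 10237.4 on the marginal and 1684.8 to 4258.6 on the other transitional arrays. C1qa, a complement gene of tissue macrophages, read 8059.6 against at most 1202.8, whereas Adgre1, the F4/80 antigen, read 321.2 there and up to 633.3 elsewhere. Skeletal muscle markers summed to 840.3 on transitional 2, of which Ttn alone gave 363.0, and at most 763.2 elsewhere. Transitional 2 was the highest array for 3 of these 10 genes. Adipocyte, osteoblast and cartilage, and salivary gland and epithelial markers were not highest there, and 5 of 5, 6 of 7 and 5 of 7 of these genes lay below the median of every array. The 7 B cell markers summed to 43142 on transitional 2, inside the marginal range of 21964.1 to 78534.5, and to 9576.1 and 6175.3 on transitional 4 and 5. The 7 erythroid markers summed to 5463.9 on transitional 2, below the marginal range of 16219.4 to 50963.7. The part of these cells in the matrix signals was not tested.

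**Figure D5:**
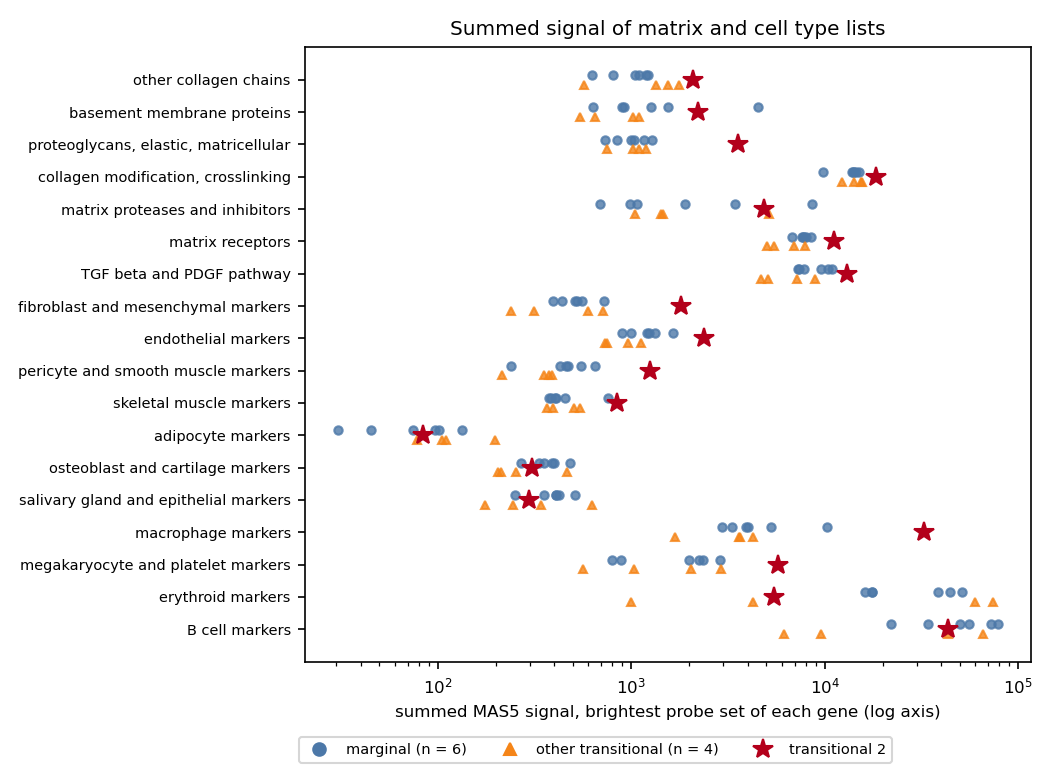
Summed MAS5 signal (log axis) of the brightest probe set of each gene for 7 matrix and 11 cell type lists, with circles for 6 marginal arrays, triangles for 4 transitional arrays and a star for transitional 2. The star lies to the right of all other arrays for, among others, fibroblast (1814.2), endothelial (2387.4), pericyte (1249.3) and macrophage (32636) markers and inside the marginal range for B cell markers.

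The genes whose order over the 11 arrays was most like that of the members were found by the Pearson r with the member score, the mean log2 deviation of the 10 genes. This score was 2.86 on transitional 2 and between −0.63 and 0.03 on the other arrays, so likeness rests on 1 array. The 10 genes with the highest r among 7752 were Clu (0.977), Plvap (0.973), C1s1 (0.970), Tab2 (0.968), Serping1 (0.968), Serpina1b (0.958), Htra1 (0.954), Mmp14 (0.946), Reg3b (0.945) and Ccl8 (0.939). The probe sets of Clu, C1s1 and Serpina1b carry suffixes that mark probes shared with other transcripts. Clu, a secreted chaperone, read 8667.6 on transitional 2 and at most 429.5 elsewhere. Serping1, the C1 inhibitor, read 2886.1 against at most 89.5, and C1s1, a complement protease, 1337.5 against at most 43.2. A check chosen after the data were seen used the other 10 arrays alone. Only 1 of the 10 genes named above, Plvap, was again among the 10 most like the members (r = 0.818). On those arrays Plvap read 21.0 to 75.8, below the median of each.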

How the data were processed

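The deposited table holds 1 linear intensity per probe set and array, and per the submitters' processing notes it was made with MAS5 (version not stated). The 2% trimmed mean was 500.2 on all 11 arrays. Of 22690 probe sets, 64 controls were left out. Gene names came from GEO's platform annotation, updated by Entrez identifier to RefSeq GRCm38.p6. Of the 22626 left, 20380 had 1 gene, 691 several and 1555 none.

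After adding 16 and taking log2, the upper 60% by mean were tested (13576) with limma 3.58.1 in R 4.3.3 (lmFit, eBayes with trend, two-sided, Benjamini-Hochberg over all tested probe sets, threshold 0.05). No detection calls, batch records or animal numbers were used, so the p-values measure the spread between these samples, and the number of arrays limits the precision. No pair of arrays was identical, and 0 columns lacked a sample. The fits were tested on simulated data.

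The members, lists and rules were chosen with earlier results of these data known. The rule names all members, the 2 smallest p per matrix list for class and for grade, and the 10 genes most like the members. Lists use the brightest probe set of each gene. Alternatives were the offset (1, 64), quantile and median scaling, no filter, the upper 40%, no trend, array weights, a block on the sample number, left-out arrays, merged low grades, animals that failed to nest, and gene means.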

Additional observations from a re-analysis of the deposited data

Results flagged for a closer look

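Of 36 sets of values (18 probe sets in 2 classes), 2 had a sample far from the others of its class on the log2 scale, and both were transitional 2. Its signal was 1741 for the brighter Col1a2 probe set and 215.7 for the brighter Col1a1 probe set, with 4 other transitional arrays at or below 116.4 and 5.6. Chance marks about 1 in 20 such sets.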

How the results depend on the processing

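No probe set was called for class or for grade alone under any of the alternatives run. For grade with class, leaving out 1 array in turn gave 0 to 1188 called probe sets (1188 without transitional 3, 1 without transitional 1) and 0 to 1 called members. For the solid tumour sign the replicate block gave 1 call, not a member. The sample number as a replicate block gave 0 calls in the other 3 tests. Arrays with the same number had residual correlations of −0.449 to −0.0889, so no positive agreement by number was seen. Arrays with different numbers were not compared, so these values do not settle whether the numbers pair the animals. Median scaling moved the median class difference of all tested probe sets from −0.055 to 0.065, so small differences have no settled direction. Class directions turned for Col6a2 (0.10 with array weights, 0.22 without transitional 4 and 5) and for Fn1 (−0.54 with array weights, −0.19 with the replicate block, −0.53 without transitional 4 and 5, −0.34 among animals that failed to nest, −0.067 with gene means). Leaving out 1 array gave −0.19 to 0.97 for Col4a1 and −0.23 to 0.42 for Fn1. Grade slopes turned for Col6a2 (0.040 with array weights, 0.064 without transitional 4 and 5). With 1 array left out they ran from −0.25 to 0.50 for Col4a1 and −0.027 to 0.95 for Sparc. With class in the model, an offset of 1 gave −0.067 for Col4a1, and left-out arrays gave −0.35 to 0.41 for Col4a1, −0.12 to 0.34 for Col6a2, −0.47 to 0.59 for Sparc and −0.031 to 1.37 for Dcn. For the sign, the replicate block moved Dcn from −0.22 to 3.32, Sparc from 0.17 to 3.63 (limma unadjusted p = 0.0146, adjusted p = 0.731), Col4a1 from 0.62 to 2.97, Col1a2 from 0.63 to 2.09 and Col6a2 from 0.34 to 1.46, and left-out arrays gave −1.01 to 0.57 for Dcn, −0.40 to 0.75 for Sparc and −0.82 to 0.48 for Fn1. All of these were uncalled. The replicate block for the sign sets each marginal array against the transitional array of the same number. Marginal 2 and 3, which failed to nest, are thus set against transitional 2 and 3. The brighter Sparc probe set read 49.0 and 13.4 on marginal 2 and 3, and 1717.2 and 186.3 on transitional 2 and 3. The part of any single array in the block results was not tested, nor was the cause of the other changes. Signals below the array median, as for most members outside transitional 2, limit what the array can order.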

Other observations

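Genes of other tissues were also high on transitional 2; those named here were chosen after their values were seen. Gcg, the glucagon gene of pancreatic islets, read 1308.6 there and at most 195.5 elsewhere, and Reg2, a secreted protein of the pancreas, 946.9 against at most 62.0. The digestive enzyme gene Ctrb1 read 392.1 on transitional 2 and 217.8 on transitional 3, the array with the second highest Sparc, and at most 65.6 on the others. Cela2a read 341.7 and 694.3 on these arrays and at most 171.4 on the others. The liver genes Alb and Apoa1 were not raised, at 29.0 and 39.2 on transitional 2 against up to 46.6 and 74.0 elsewhere. Serpina1b and Cp, whose products liver also secretes, were high there, at 2944.8 and 2806.4 against at most 50.6 and 158.3. Genes of lymphoid stroma were high on transitional 2 as well. Cxcl13, the chemokine that draws B cells into follicles, read 6698.0 against at most 544.1, Mfge8, which follicular dendritic cells secrete, 4996.0 against at most 476.1, and Madcam1, an adhesion molecule of lymphoid vessels and sinuses, 673.9 against at most 123.2.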
